A study of Mus musculus with 24 samples.

Results

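The effect of Hras on gene expression was measured in primary cultures of wild-type mouse keratinocytes, the epithelial cells that build the epidermis, kept in the vehicle DMSO. The comparison takes 6 of the 24 arrays of the study: 3 arrays of wild-type cells infected with a retrovirus that encodes Hras, and 3 arrays of mock-infected wild-type cells. All 6 arrays came from C57/BL6 cells that had been grown for 2 days before the virus was added. The infected cells are labelled as carrying Hras for 48 hours, and both groups had DMSO and no ligand. The other 18 arrays hold cells lacking PPAR-beta, or cells given 1 uM of the PPAR-beta agonist GW0742 for 24 hours, or both, each with and without Hras. The labels do not state whether replicates came from separate cultures or animals, so p-values measure the spread between arrays, which may be technical. They do not state which form of Hras the virus encodes or what share of the cells carried it.

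Hras is a small GTPase that relays signals from growth factor receptors to the RAF-MEK-ERK kinase cascade and to PI3 kinase. Active ERK induces its own inhibitors, among them the dual-specificity phosphatases and the Sprouty and Spred proteins, and acts on transcription factors of the ETS and AP-1 families. In mouse skin an activating mutation of Hras is the usual first step of chemically induced papillomas, and keratinocytes given oncogenic Hras in culture serve as a model of that step. Epidermal keratinocytes divide in the basal layer, which makes keratins 5 and 14, and on leaving it switch to keratins 1 and 10 and then to the proteins and lipids of the cornified layer.

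Total RNA was read on Affymetrix Mouse Gene ST arrays, and 19937 genes were tested. Values are log2 expression, changes are log2 differences, Hras minus mock, ± standard error from a limma model of all 24 arrays, and adjusted p-values are limma's with Benjamini-Hochberg adjustment. A gene is said to have risen or fallen where its adjusted p was under 0.05. The medians of the arrays spanned 7.46 to 7.53. With 3 arrays a group, their number sets the precision. The first principal component of the 6 arrays held 89.1% of their variance and separated the groups. Krt5 measured 14.12 ± 0.02 in Hras-infected and 14.25 ± 0.02 in mock-infected cells (SD, n = 3 each) and Krt14 13.95 ± 0.01 in Hras-infected and 14.13 ± 0.02 in mock-infected cells (SD, n = 3 each), so the defining basal keratins were strongly measured in both groups.

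A large part of the measured genes changed with Hras. The test passed 7454 genes, 37.4% of those tested, of which 3671 (18.4%) were higher and 3783 (19%) lower with Hras. The median change over all genes was 0.02. Counts in the gene lists below are to be read against the shares of all genes, 18.4% higher and 19% lower. The lists were written with earlier results of these data known, and their counts were not tested against those shares. Most changes were small: 451 genes rose and 550 fell by at least 2-fold, 95 rose and 124 fell by at least 4-fold, and 31 rose and 19 fell by at least 8-fold. In 9872 genes (49.5%) the 3 arrays of one group lay wholly above those of the other. With each array centred on its median the passing genes split into 4625 higher and 3142 lower, so the share that was higher was 59.5% in place of 49.2%, and counts near balance have no firm direction.

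**Figure D1:**
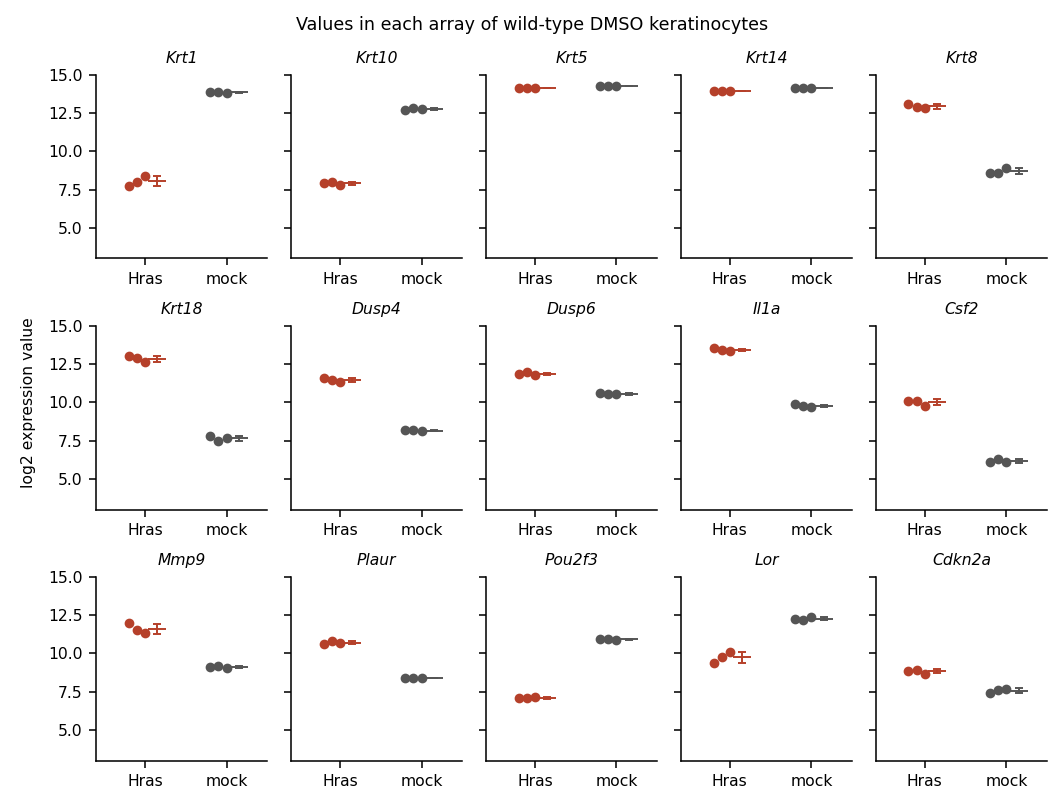
Log2 expression values (vertical axes) of 15 genes in each of the 3 Hras-infected (red) and 3 mock-infected (grey) wild-type DMSO arrays, with the mean and SD beside the points. The groups do not overlap for any gene shown. Krt1 and Krt10 lie far lower with Hras, Krt8 and Krt18 far higher, and Krt5 and Krt14 lie near the top of the scale in both groups.

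Keratin genes held the largest fall of the comparison and some of the largest rises. Krt1, the first keratin of the suprabasal layers, measured 7.75, 8.02 and 8.38 in the Hras-infected arrays, against 13.85, 13.87 and 13.82 in the mock-infected arrays. Its partner Krt10 measured 7.90, 7.99 and 7.82 in the Hras-infected arrays, against 12.68, 12.81 and 12.77 in the mock-infected arrays. The mock arrays were higher in every case and the groups lay far apart: Krt1 fell by 5.80 ± 0.13 (adjusted p = 1.71e-18), a level 55.7-fold higher in mock-infected cells, and Krt10 fell by 4.85 ± 0.09 (adjusted p = 1.44e-19). Krt80 (-1.59 ± 0.12) and Krt77 (-1.03 ± 0.07) fell too, while in the basal pair, Krt5 fell by 0.13 ± 0.04 and Krt14 fell by 0.18 ± 0.04. Krt79, a keratin of the hair follicle's upper duct, rose by 1.86 ± 0.14. Of the 11 basal and suprabasal keratins measured, 1 rose, 6 fell and 4 did not pass. The Krt5 fall did not pass with only the 6 arrays in the model (adjusted p = 0.0529) or with each array centred (adjusted p = 0.126).

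Keratins 8 and 18, the pair of simple, one-layered epithelia that epidermis normally lacks, moved the other way. Krt18 measured 13.02, 12.87 and 12.61 in the Hras-infected arrays, against 7.83, 7.50 and 7.66 in the mock-infected arrays. Krt8 measured 13.09, 12.92 and 12.80 in the Hras-infected arrays, against 8.61, 8.60 and 8.91 in the mock-infected arrays. The groups were well apart for both, with a change of 5.17 ± 0.14 for Krt18 (adjusted p = 3.77e-17) and 4.23 ± 0.16 for Krt8 (adjusted p = 4.95e-15). Krt19 (1.75 ± 0.15), Krt7 (1.05 ± 0.13) and Krt4 (0.75 ± 0.09), also keratins of simple or internal epithelia, rose. The keratins of wounded and hyperproliferative epidermis did not rise: Krt16 fell by 1.29 ± 0.11, Krt6b fell by 0.99 ± 0.10, Krt6a fell by 0.32 ± 0.05 and Krt17 fell by 0.24 ± 0.04. The list of simple epithelial and stress keratins thus held 5 risen, 4 fallen and 2 not passing of 11.

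Genes of the cornified envelope fell in 17 of 27 cases, where 19% of all genes fell, 2 rose and 8 did not pass, with a median of -0.89. Lor, which encodes loricrin, the main protein of the envelope, measured 9.38, 9.75 and 10.10 in the Hras-infected arrays, against 12.26, 12.19 and 12.37 in the mock-infected arrays. Calm4, a calcium-binding protein of differentiating keratinocytes, measured 9.68, 10.06 and 10.37 in the Hras-infected arrays, against 12.86, 12.81 and 12.64 in the mock-infected arrays. Both sets of arrays were clear of each other, with changes of -2.53 ± 0.15 and -2.73 ± 0.14. The filaggrin-family genes Flg2 (-2.55 ± 0.12), Rptn (-2.54 ± 0.21) and Hrnr (-1.90 ± 0.14), the crosslinking enzyme Tgm3 (-2.60 ± 0.10) and the late envelope genes Lce1f (-2.35 ± 0.21) and Lce1b (-1.89 ± 0.16) fell as well. Sprr1a (-0.05 ± 0.04, adjusted p = 0.4) and Asprv1 (-0.16 ± 0.07, adjusted p = 0.072) did not pass. The 2 that rose, named after their values were seen, were Sprr3 (0.86 ± 0.09) and Lce3a (1.11 ± 0.20). Lce and Sprr genes are families of close copies, so probe sets may share signal between members.

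The 300-base windows around the gene starts of 3 strongly risen and 2 strongly fallen genes are shown because each holds the heptamer TGANTCA. Its forms with C or G in the middle are the consensus site of AP-1, the dimer of Fos and Jun proteins. The search allowed any middle base, and the heptamer of Flg2, TGAATCA, is not one of those forms. The genes were chosen after their values were seen. Plaur encodes the urokinase receptor, Il1a and Lif are cytokines, and Lor and Flg2 are genes of the cornified layer. The sequences are RefSeq's on GRCm38.p6, each in the direction of its gene, running from 250 bases before the start to 50 after it, with the heptamer in capitals. They lie at chr7:24462233-24462532, plus strand (Plaur), chr2:129309923-129310222, minus strand (Il1a), chr11:4257318-4257617, plus strand (Lif), chr3:92083093-92083392, minus strand (Lor) and chr3:93197023-93197322, plus strand (Flg2).
Plaur: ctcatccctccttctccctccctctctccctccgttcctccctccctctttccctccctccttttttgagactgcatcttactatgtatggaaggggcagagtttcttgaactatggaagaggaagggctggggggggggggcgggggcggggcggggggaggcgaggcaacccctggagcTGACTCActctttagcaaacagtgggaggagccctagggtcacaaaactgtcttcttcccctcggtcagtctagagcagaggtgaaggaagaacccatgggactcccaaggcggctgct
Il1a: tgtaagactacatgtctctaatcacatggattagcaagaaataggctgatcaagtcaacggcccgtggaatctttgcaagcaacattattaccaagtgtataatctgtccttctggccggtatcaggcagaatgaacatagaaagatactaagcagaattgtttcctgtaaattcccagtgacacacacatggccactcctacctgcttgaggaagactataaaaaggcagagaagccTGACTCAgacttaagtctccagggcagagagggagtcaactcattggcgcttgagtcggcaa
Lif: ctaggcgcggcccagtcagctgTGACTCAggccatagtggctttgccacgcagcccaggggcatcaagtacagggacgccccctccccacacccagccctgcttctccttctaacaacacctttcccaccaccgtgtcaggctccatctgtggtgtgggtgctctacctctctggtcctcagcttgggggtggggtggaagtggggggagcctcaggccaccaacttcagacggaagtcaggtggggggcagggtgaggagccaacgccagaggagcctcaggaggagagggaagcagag
Lor: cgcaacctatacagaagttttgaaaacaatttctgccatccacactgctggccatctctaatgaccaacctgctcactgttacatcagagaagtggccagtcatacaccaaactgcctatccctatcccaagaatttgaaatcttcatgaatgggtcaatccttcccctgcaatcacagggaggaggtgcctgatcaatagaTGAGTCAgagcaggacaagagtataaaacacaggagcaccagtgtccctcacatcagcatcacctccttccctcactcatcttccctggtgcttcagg
Flg2: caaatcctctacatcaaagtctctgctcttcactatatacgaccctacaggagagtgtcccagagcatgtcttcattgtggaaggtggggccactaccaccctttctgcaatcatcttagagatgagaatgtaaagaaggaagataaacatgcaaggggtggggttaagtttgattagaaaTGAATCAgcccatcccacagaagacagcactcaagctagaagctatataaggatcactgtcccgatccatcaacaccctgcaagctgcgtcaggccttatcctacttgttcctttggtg

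The RefSeq table holds such windows for 15613 of the genes tested, some with several starts, 19176 windows in all. On either strand, 6.9% of them hold TGANTCA with any middle base, so the shares are not of the AP-1 consensus alone. The share was 13.8% of the 80 windows of genes that rose by at least 4-fold and 18.2% of the 110 windows of genes that fell as much. At 2-fold the shares were 12.8% of 438 windows for rises and 13.6% of 507 for falls, against 7.19% of 11596 windows of genes that did not pass. The ETS sequence CCGGAAGT stood in 5.41% of all windows, in 1.37% of the windows of 2-fold rises and in 0% of those of 2-fold falls. The TATA sequence TATAAA stood in 11.5% of all windows, 17.5% for 4-fold rises and 30% for 4-fold falls. At 2-fold it stood in 14.2% of the windows of rises and 15.6% of those of falls, against 13.5% for genes that did not pass. The motifs were counted separately, so a window may hold several. These shares describe the letters in a short window and were not tested.

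Lipid barrier genes, which make the ceramides and lipids between cornified cells, fell in 13 of 21 cases, rose in 4 and did not pass in 4 (median -0.41). The lipases Lipm (-1.97 ± 0.14) and Lipn (-1.42 ± 0.16), the lipoxygenases Alox12b (-1.52 ± 0.17) and Aloxe3 (-1.17 ± 0.17), Pnpla1 (-1.28 ± 0.16), which joins ceramides to linoleate, the fatty acid hydroxylase Cyp4f39 (-0.84 ± 0.12) and the serine palmitoyltransferase subunit Sptlc3 (-1.58 ± 0.10) fell. Degs2, which adds a hydroxyl to ceramides, rose by 0.73 ± 0.19. Among keratinocyte proteases, including kallikreins that shed cornified cells, and the inhibitor Spink5, 4 rose and 6 fell of 13. The number that fell was 4 without Hras replicate 1 and 8 without Hras replicate 3. Klk5 fell by 2.29 ± 0.18 and Klk11 fell by 1.70 ± 0.08, whereas Klk14 (0.94 ± 0.10), Klk10 (0.69 ± 0.07) and Klk8 (0.47 ± 0.05) rose.

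Transcription factors of epidermal fate and Notch genes did not rise in any of 22 cases: 18 fell and 4 did not pass, with a median of -0.43. Pou2f3, a POU factor of the suprabasal layers outside that list, was the ninth largest fall and measured 7.09, 7.06 and 7.17 in the Hras-infected arrays, against 10.92, 10.94 and 10.88 in the mock-infected arrays. Every mock array was higher, and its change was -3.81 ± 0.05 (adjusted p = 1.38e-21). Trp63, the p63 factor that the basal layer needs, fell by 1.02 ± 0.06, and Zfp750, its target in differentiation, fell by 1.19 ± 0.12. Ovol1 (-1.56 ± 0.10), Grhl1 (-1.40 ± 0.10), Cebpa (-1.37 ± 0.08), Gata3 (-0.84 ± 0.05), the receptor Notch2 (-0.78 ± 0.05) and its ligand Dll1 (-0.81 ± 0.07) fell. Sox9 (0.07 ± 0.05, adjusted p = 0.374) and the Notch ligand Jag1 (-0.10 ± 0.05, adjusted p = 0.0843) did not pass.

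The ERK feedback and ETS target genes rose in 14 of 22 cases, where 18.4% of all genes rose. They fell in 3 (5 in a fit without the null Hras GW0742 group) and did not pass in 5 (median 0.43). Dusp4, a phosphatase that removes the activating phosphates of ERK, measured 11.57, 11.48 and 11.35 in the Hras-infected arrays, against 8.16, 8.18 and 8.11 in the mock-infected arrays. Its groups lay apart and it rose 9.95-fold (3.31 ± 0.09, adjusted p = 2.1e-17). The other ERK phosphatases Dusp5 (1.55 ± 0.08) and Dusp6 (1.31 ± 0.07), the ETS factors Etv5 (1.97 ± 0.10) and Etv4 (1.37 ± 0.06), the Spred-family inhibitor Spred3 (1.78 ± 0.12) and Phlda1 (1.15 ± 0.07) rose. Dusp8, which acts on the JNK and p38 kinases, fell by 1.42 ± 0.09. The other falls, named after their values were seen, were Spry1 (-0.87 ± 0.07), an inhibitor of receptor signalling, and the ETS factor Etv1 (-0.69 ± 0.08).

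Immediate early genes, which serum and growth factors induce within minutes, rose in 4 of 18 cases and fell in 10 (median -0.25). Fosl1, the gene of the Fos-family protein Fra-1, measured 10.49, 10.58 and 10.55 in the Hras-infected arrays, against 9.11, 9.10 and 9.22 in the mock-infected arrays. Jun measured 10.39, 10.51 and 10.46 in the Hras-infected arrays, against 11.85, 11.90 and 11.93 in the mock-infected arrays. The groups were separate for both and moved in opposite directions, 1.40 ± 0.09 for Fosl1 and -1.44 ± 0.09 for Jun. The nuclear receptor Nr4a1 rose by 1.43 ± 0.09. Egr1 (-1.25 ± 0.14), Egr2 (-0.91 ± 0.13), Egr3 (-0.91 ± 0.08), Fosl2 (-0.65 ± 0.06) and Srf (-0.50 ± 0.05) fell. Myc (0.03 ± 0.05, adjusted p = 0.753) and Jund (-0.06 ± 0.05, adjusted p = 0.448) did not pass.

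In the EGF family 5 ligands rose, and 3 receptors and 1 ligand fell. Nrg1 (1.68 ± 0.07), Btc (1.02 ± 0.09), Hbegf (0.93 ± 0.06), Tgfa (0.85 ± 0.07) and Ereg (0.47 ± 0.09), all ligands, made up the 5 rises among the 12 genes measured. The receptors Egfr (-0.91 ± 0.06), Erbb2 (-0.78 ± 0.05) and Erbb3 (-0.50 ± 0.05) and the ligand Epgn (-1.02 ± 0.13) fell. Erbb4 (0.00 ± 0.12), Egf (0.11 ± 0.11) and the sheddase Adam17 (0.15 ± 0.06) did not pass. Among regulators of Ras and PI3 kinase 7 rose and 7 fell of 21, where 18.4% of all genes rose and 19% fell. Rasgrp1, an exchange factor that loads Ras with GTP, fell the most (-1.76 ± 0.08). The fibroblast growth factor receptors Fgfr3 (-1.64 ± 0.09) and Fgfr2 (-1.45 ± 0.06), looked at after their values were seen, fell.

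**Figure D2:**
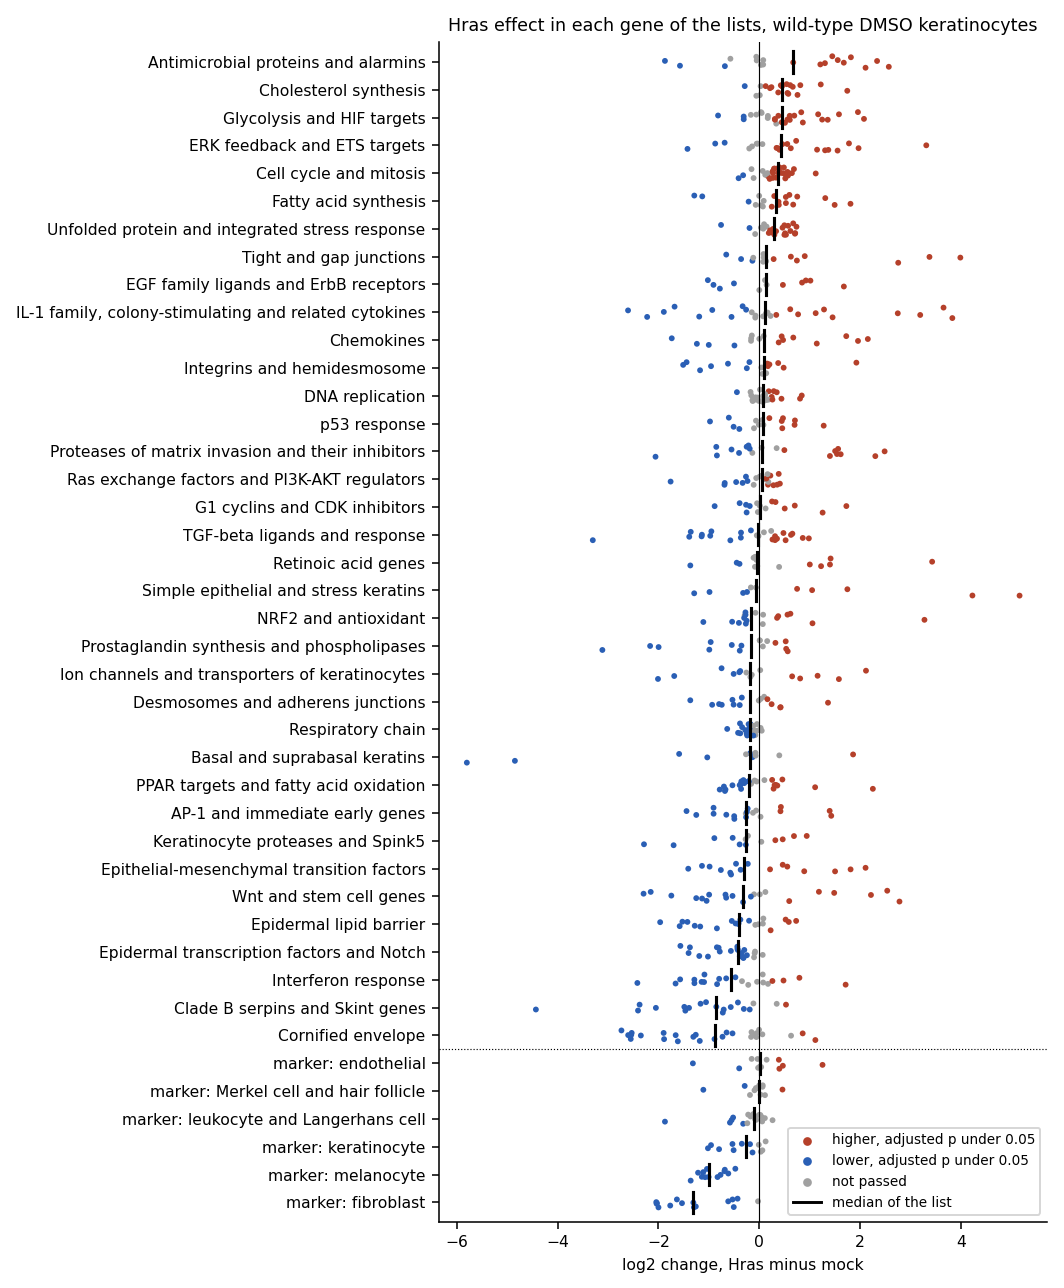
Log2 change with Hras (horizontal axis) of each measured gene of 36 pathway lists and 6 marker lists (rows; markers are the lowest rows), coloured by the limma call, with a bar at the median of each list. Cornified envelope, interferon, serpin and epidermal factor lists lie mostly left of 0. Cell cycle, cholesterol and stress response lists lie mostly right of it, and fibroblast and melanocyte markers lie left.

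Members of junctions and integrins moved in both directions. The tight junction proteins Cldn7 (3.99 ± 0.18), Cldn3 (3.38 ± 0.14) and Cldn6 (2.76 ± 0.23) rose the most among 15 tight and gap junction genes (7 risen, 3 fallen). Cldn7 measured 11.75, 11.69 and 11.50 in the Hras-infected arrays, against 7.38, 7.67 and 7.91 in the mock-infected arrays, with a wide gap between the groups. Of 16 genes of desmosomes and adherens junctions 5 rose and 8 fell: Dsc2, the most widespread desmocollin, rose by 1.36 ± 0.08, while Dsg1b (-1.37 ± 0.15), Dsc3 (-0.93 ± 0.06), desmoplakin (Dsp, -0.80 ± 0.06) and plakophilin 3 (Pkp3, -0.74 ± 0.06) fell. E-cadherin (Cdh1, 0.03 ± 0.05, adjusted p = 0.656) did not pass. Among 18 integrin and hemidesmosome genes 6 rose and 7 fell, or 8 and 6 with each array centred. Itga3, the laminin-binding subunit, rose by 1.93 ± 0.05 and Itga2, a collagen receptor, by 0.48 ± 0.06, while Itgb8 (-1.51 ± 0.11), Itga1 (-1.44 ± 0.10), Itgb6 (-1.17 ± 0.08) and the hemidesmosomal collagen Col17a1 (-0.96 ± 0.07) fell.

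Proteases of matrix invasion and their inhibitors were split as well, with 8 risen, 8 fallen and 3 not passing of 19, or 8 risen and 5 fallen with each array centred or without mock replicate 1 or 2 (median 0.05). Mmp9, a gelatinase, measured 11.97, 11.55 and 11.30 in the Hras-infected arrays, against 9.13, 9.17 and 9.05 in the mock-infected arrays. It rose by 2.49 ± 0.17 with no overlap. The urokinase receptor Plaur (2.30 ± 0.09) and its ligand Plau (1.51 ± 0.08), the stromelysins Mmp10 (1.62 ± 0.10) and Mmp3 (1.40 ± 0.11) and the collagenases Mmp1a (1.57 ± 0.17) and Mmp1b (1.54 ± 0.16), which are near-identical copies and cannot be separated with confidence, rose. Adamts1 fell by 2.06 ± 0.08. Mmp13 (0.35 ± 0.22, adjusted p = 0.258) and Timp1 (0.05 ± 0.13, adjusted p = 0.827) did not pass.

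Cytokines and chemokines included several of the largest rises. Il1a, which encodes interleukin-1 alpha, measured 13.52, 13.40 and 13.34 in the Hras-infected arrays, against 9.86, 9.76 and 9.67 in the mock-infected arrays. Csf2, the gene of GM-CSF, measured 10.11, 10.10 and 9.76 in the Hras-infected arrays, against 6.07, 6.32 and 6.08 in the mock-infected arrays. Ppbp, a platelet-type chemokine of the CXC family and the largest rise of all genes, measured 11.88, 11.80 and 11.72 in the Hras-infected arrays, against 6.05, 6.02 and 6.37 in the mock-infected arrays. All 3 had groups several log2 units apart, with changes of 3.66 ± 0.09 (adjusted p = 8.62e-18), 3.83 ± 0.22 (adjusted p = 4.69e-12) and 5.65 ± 0.17 (adjusted p = 1.26e-16). Il3 rose by 3.67 ± 0.23, Il24 by 3.19 ± 0.07 and Lif by 2.75 ± 0.11. In the IL-1 and colony-stimulating list 10 rose and 9 fell of 26. The alarmin Il33 (-2.60 ± 0.09), Il18 (-1.89 ± 0.12) and 2 further members of the IL-1 family, Il1f5 (-2.22 ± 0.12), which blocks the IL-36 receptor, and Il1f9 (-1.68 ± 0.14), an IL-36 cytokine, fell.

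Of 17 chemokine genes 8 rose and 4 fell. The neutrophil-attracting Cxcl2 (2.16 ± 0.16), Cxcl5 (1.96 ± 0.17) and Cxcl1 (1.73 ± 0.14), together with Cx3cl1 (1.14 ± 0.10) and Ccl20 (0.68 ± 0.12), rose. Cxcl14 (-1.74 ± 0.07) and Cxcl10 (-1.24 ± 0.12), an interferon target, fell. Antimicrobial proteins and alarmins rose in 10 of 19 cases and fell in 3, with the highest median of the pathway lists (0.67). S100a7a (2.57 ± 0.09), S100a8 (2.11 ± 0.15), S100a9 (1.82 ± 0.10), the iron-binding lipocalin Lcn2 (2.34 ± 0.13), Pglyrp1 (1.68 ± 0.12) and the protease inhibitor Slpi (1.56 ± 0.08) rose, and the defensin Defb1 (-1.57 ± 0.11) and lysozyme Lyz2 (-1.87 ± 0.14) fell.

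Interferon response genes fell in 12 of 22 cases and rose in 4 (median -0.56), where 19% of all genes fell and 18.4% rose. Usp18, which restrains interferon signalling and is induced by it, measured 7.07, 7.23 and 7.16 in the Hras-infected arrays, against 9.73, 9.60 and 9.40 in the mock-infected arrays. It fell by 2.42 ± 0.24 with a clear gap. The transcription factors Irf9 (-1.66 ± 0.13) and Irf7 (-1.14 ± 0.14), the effectors Oasl2 (-1.29 ± 0.20) and Ifit1 (-1.09 ± 0.24), and Xaf1 (-1.57 ± 0.16) and Rtp4 (-1.29 ± 0.19) fell. The nuclease Isg20 rose by 1.71 ± 0.07. Ddx58 (0.08 ± 0.12, adjusted p = 0.692) and Bst2 (-0.04 ± 0.08, adjusted p = 0.732) did not pass. Prostaglandin genes fell in 8 of 16 cases and rose in 4: the secreted phospholipase Pla2g2f fell by 3.11 ± 0.10 and the phospholipase Pla2g4f fell by 0.96 ± 0.13, while Ptges, a prostaglandin E synthase, rose by 0.57 ± 0.07.

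Genes of the cell cycle and mitosis rose in 24 of 31 cases and fell in 2, by small amounts (median 0.38). Kif23, a kinesin of cytokinesis, rose the most (1.12 ± 0.07), followed by the spindle checkpoint kinase Ttk (0.69 ± 0.09) and cyclin E1 (Ccne1, 0.65 ± 0.05). Cdk1 rose by 0.57 ± 0.06 and Aurka by 0.57 ± 0.06. The proliferation marker Mki67 (-0.11 ± 0.07, adjusted p = 0.262) did not pass. Of 27 DNA replication genes 8 rose, among them the licensing factor Cdt1 (0.84 ± 0.11) and the thymidine kinase Tk1 (0.81 ± 0.07), 1 fell and 18 did not pass, and 5 rose without Hras replicate 3. That share of passing genes, 33.3%, is near the 37.4% of all genes. Pcna (-0.17 ± 0.34, adjusted p = 0.758), the replication clamp, was one of those 18.

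Cyclin D1 and the Cdkn2a locus both rose. Ccnd1, the gene of cyclin D1 and a target of ERK signalling, measured 13.63, 13.58 and 13.56 in the Hras-infected arrays, against 11.95, 11.67 and 11.97 in the mock-infected arrays. Cdkn2a, the locus of p16 and p19ARF, measured 8.86, 8.94 and 8.68 in the Hras-infected arrays, against 7.39, 7.62 and 7.70 in the mock-infected arrays. Neither gene's groups overlapped, and the changes were 1.73 ± 0.08 and 1.26 ± 0.10. Cdkn2b (0.51 ± 0.11) and Mdm2 (0.71 ± 0.05) rose too, and the retinoblastoma genes Rb1 (-0.88 ± 0.05) and Rbl2 (-0.39 ± 0.07) fell, in a list of 6 risen and 5 fallen of 15. Of 16 genes of the p53 response 7 rose and 4 fell, where 18.4% of all genes rose and 19% fell. Eda2r (1.28 ± 0.10), Pmaip1 (0.70 ± 0.06) and Sesn2 (0.71 ± 0.08) were higher and Sesn1 (-0.98 ± 0.06) lower. The probe set of Cdkn2a does not tell its 2 products apart.

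Genes of glycolysis and the hypoxia factor HIF rose in 17 of 27 cases and fell in 3 (median 0.45). Bnip3, a mitochondrial protein of autophagy, rose by 2.08 ± 0.12, the lactate exporter Slc16a3 by 1.96 ± 0.08, the collagen hydroxylase P4ha2 by 1.58 ± 0.08, the carbonic anhydrase Car9 by 1.25 ± 0.12 and the oxygen sensor Egln3 by 1.17 ± 0.15. Hk2 (-0.17 ± 0.08, adjusted p = 0.141) did not pass. Genes of the respiratory chain did not rise in any of 27 cases: 17 fell, by small amounts (median -0.18), with Ndufa1 the most (-0.64 ± 0.09).

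Most genes of lipid synthesis rose. Cholesterol synthesis genes did so in 15 of 19 cases, with 1 fall (median 0.45): Dhcr7, the last enzyme of the pathway, by 1.75 ± 0.06, Tm7sf2 by 1.22 ± 0.10 and Lss by 0.82 ± 0.06. Fatty acid synthesis genes rose in 12 of 20 cases and fell in 3, led by the desaturase Fads2 (1.81 ± 0.08), while Dgat2, which makes triglyceride, fell by 1.29 ± 0.12. PPAR targets and fatty acid oxidation genes fell in 14 of 26 cases and rose in 8 (median -0.21). Within that list Angptl4, an inhibitor of lipoprotein lipase, measured 9.79, 9.88 and 9.55 in the Hras-infected arrays, against 7.50, 7.52 and 7.44 in the mock-infected arrays, with no overlap, and rose by 2.25 ± 0.11. Fabp4, a fatty acid carrier, rose by 1.11 ± 0.11 and Ppard, the gene of PPAR-beta itself, by 0.46 ± 0.06, and Fabp5 (-0.78 ± 0.07), Rxra (-0.70 ± 0.05) and Cpt1a (-0.53 ± 0.07), the entry enzyme of mitochondrial oxidation, fell.

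Most stress response genes that passed rose by small amounts. The unfolded protein and integrated stress response list had 20 risen and 2 fallen of 27 (median 0.30), and 15 risen without Hras replicate 3. Among the risen were Shmt2 (0.74 ± 0.06) and Mthfd2 (0.67 ± 0.05) of mitochondrial one-carbon metabolism and the ATF4 target Trib3 (0.57 ± 0.08). The NRF2 and antioxidant list was mixed, with 6 risen and 8 fallen of 18. Gsta4, a glutathione transferase that clears lipid aldehydes, measured 11.28, 11.53 and 11.64 in the Hras-infected arrays, against 8.37, 8.11 and 8.13 in the mock-infected arrays, a wide gap and a rise of 3.28 ± 0.12, while Gstm1 (-1.11 ± 0.09) and Nqo1 (-0.54 ± 0.10) fell.

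TGF-beta and BMP genes were divided, with 10 risen and 11 fallen of 25, or 10 and 10 with each array centred. Tgfbi, a matrix protein named for its induction by TGF-beta, fell by 3.30 ± 0.07, and the targets Id1 (-1.39 ± 0.08), Ccn2 (-1.36 ± 0.09) and Id2 (-0.97 ± 0.05) fell, whereas Smad3 rose by 0.98 ± 0.09. Wnt and stem cell genes rose in 6 and fell in 12 of 21 cases. The stem cell receptor Lgr6 (2.78 ± 0.13), the bulge marker Cd34 (2.54 ± 0.12), Wnt7a (2.22 ± 0.07) and Wnt7b (1.49 ± 0.09) rose, and Lgr5 (-2.29 ± 0.09), the BMP and Wnt antagonist Sostdc1 (-2.15 ± 0.07), Wnt3 (-1.74 ± 0.09) and Lgr4 (-1.25 ± 0.08) fell. In the list of epithelial-mesenchymal transition 7 rose and 9 fell of 16, with podoplanin (Pdpn, 2.11 ± 0.10), Epcam (1.81 ± 0.08) and Snai3 (1.51 ± 0.08) higher, and vimentin (Vim, -1.14 ± 0.09), Zeb2 (-1.41 ± 0.08), Twist2 (-0.98 ± 0.10) and Twist1 (-0.76 ± 0.10) lower.

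Markers of fibroblasts and melanocytes, which can accompany keratinocytes in primary culture, were lower with Hras. Of 15 fibroblast markers 14 fell and 0 rose (median -1.31), where 19% of all genes fell. The mean log2 value over the list ran from 7.32 to 7.42 in the Hras-infected arrays, against 8.61 to 8.65 in the mock-infected arrays. The matrix protein Postn (-2.04 ± 0.10), the growth factor receptor Pdgfrb (-2.04 ± 0.07), the surface protein Thy1 (-2.03 ± 0.13) and the collagen chain Col1a2 (-1.77 ± 0.08) were among those that fell. All 13 melanocyte markers fell, and the median level over the list was 8.07 with Hras, against 8.75 without. The array means of the list were 8.39 to 8.55 with Hras, against 9.36 to 9.44 without. Mlana measured 9.62, 9.72 and 9.55 in the Hras-infected arrays, against 11.02, 11.02 and 10.93 in the mock-infected arrays, with no overlap. Dct and Tyrp1, enzymes of pigment synthesis, fell, with changes of -1.21 ± 0.09 and -1.07 ± 0.08. Fewer cells of a type and less RNA per cell cannot be told apart in bulk RNA, and the part of these markers in the falls of the mesenchymal genes was not tested.

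The other marker lists had medians nearer 0. Of 12 keratinocyte markers 8 fell and 0 rose, by a median of -0.26. Of 20 leukocyte and Langerhans cell markers 5 fell, 0 rose and 15 did not pass (median -0.11), where 19% of all genes fell. Of 12 endothelial markers 4 rose, among them the VEGF receptor Flt1 (1.26 ± 0.13), and 2 fell, among them Eng (-1.32 ± 0.07), while Cdh5 (0.15 ± 0.11, adjusted p = 0.356) and Vwf (0.01 ± 0.09, adjusted p = 0.957) did not pass. Of 12 Merkel cell and hair follicle markers 1 rose, Krt75 (0.46 ± 0.12), and 2 fell, Lhx2 (-1.11 ± 0.10) and Krt25 (-0.29 ± 0.11), the last of which did not pass in 7 of the 12 alternative settings tried. The other 9 did not pass, where 37.4% of all genes passed. The counts of these marker lists were not tested against the shares of all genes.

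Several of the largest changes lay outside the lists described so far or in smaller families. Kcnn4, a calcium-activated potassium channel, measured 12.38, 12.32 and 12.19 in the Hras-infected arrays, against 7.31, 7.31 and 7.49 in the mock-infected arrays, and rose by 4.92 ± 0.10 (adjusted p = 3.31e-19). Wfdc2 (4.29 ± 0.18), a secreted protein of simple epithelia, the orphan receptor Gpr50 (4.62 ± 0.16), Plekhs1 (4.24 ± 0.24), Dynap (3.54 ± 0.10), Bcl2l15 (3.53 ± 0.10), the scramblase-family gene Plscr2 (3.36 ± 0.19) and the carbonic anhydrase Car2 (3.43 ± 0.16) were among the 20 largest rises. Retinoic acid genes rose in 5 of 14 cases and fell in 3, where 18.4% of all genes rose and 19% fell. Stra6, the receptor that takes up vitamin A, rose by 3.43 ± 0.13, Crabp2 by 1.42 ± 0.10, Aldh1a3, which makes retinoic acid, by 1.40 ± 0.08 and Rdh10 by 1.23 ± 0.09, while Crabp1 fell by 1.37 ± 0.09.

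The 20 largest falls, beyond the keratins, held Serpinb3a, a clade B serpin, which measured 3.64, 3.21 and 3.61 in the Hras-infected arrays, against 7.76, 8.18 and 7.82 in the mock-infected arrays, clearly separate, and fell by 4.43 ± 0.16. Clade B serpins and Skint genes fell in 16 of 19 cases and rose in 1 (median -0.85), among them Serpinb7 (-2.37 ± 0.20) and Skint9 (-2.40 ± 0.18), and close copies in that family limit how far members can be separated. The arylacetamide deacetylase relatives Aadacl2 (-4.45 ± 0.12) and Aadacl2fm1 (-3.27 ± 0.15), the thioesterase Them5 (-4.32 ± 0.11), the aldehyde oxidase Aox4 (-4.01 ± 0.12), Dapl1 (-4.11 ± 0.13), the retinol dehydrogenase Sdr16c5 (-3.18 ± 0.20), the monocarboxylate carrier Slc16a7 (-3.14 ± 0.10), the carboxypeptidase Cpa6 (-2.97 ± 0.09) and the gasdermin Gsdmc (-3.02 ± 0.14) fell. The matrix genes Aspn (-4.12 ± 0.20), Ccdc80 (-3.43 ± 0.11) and Lrrc17 (-3.16 ± 0.09) and the secreted Pi15 (-3.42 ± 0.13) fell beside the fibroblast markers described above. The stefin Stfa3, a cysteine protease inhibitor, fell by 3.21 ± 0.11. Ion channel and transporter genes rose in 5 and fell in 6 of 15 cases, with Slc26a9 (2.12 ± 0.09) the highest and Aqp9 (-2.01 ± 0.12) the lowest.

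Probe sets of microRNA genes were looked at after their values were seen. They read the primary transcript or hairpin and not the mature microRNA. Of 296 measured, 36 rose, 21 fell and 239 did not pass, a share passing of 19.3% against 37.4% of all genes. Their median level in mock-infected cells was 6.15, below the array medians of 7.46 to 7.53. Whether the lower share goes with the low level was not tested. An entry in the RefSeq table exists for 271. The mature sequences below belong to the clusters and single genes that the next paragraph turns on, with the seed, bases 2 to 8, in capitals (RefSeq, GRCm38.p6). miR-99a, let-7c and miR-125b come from one cluster on chromosome 16, and miR-99b, let-7e and miR-125a from a related cluster on chromosome 17, and each of the first 3 shares its seed with 1 of the second 3.
miR-99a-5p: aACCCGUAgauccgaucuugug
miR-99b-5p: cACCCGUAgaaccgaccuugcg
let-7c-5p: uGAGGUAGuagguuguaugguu
let-7e-5p: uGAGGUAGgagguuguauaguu
miR-125b-5p: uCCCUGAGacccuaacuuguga
miR-125a-5p: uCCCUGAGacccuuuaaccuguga
miR-203-3p: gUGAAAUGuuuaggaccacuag
miR-205-5p: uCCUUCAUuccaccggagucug
miR-31-5p: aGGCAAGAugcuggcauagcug

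The 2 clusters moved in opposite directions. Mir99a measured 6.40, 6.86 and 6.57 in the Hras-infected arrays, against 8.03, 8.06 and 7.95 in the mock-infected arrays. Mir99b measured 9.17, 8.93 and 8.93 in the Hras-infected arrays, against 8.71, 8.73 and 8.77 in the mock-infected arrays. The groups did not overlap for either, Mir99a was lower and Mir99b slightly higher with Hras. On chromosome 16, Mir99a (-1.41 ± 0.13), Mirlet7c-1 (-1.58 ± 0.17), Mir125b-2 (-0.58 ± 0.09) and their host transcript Mir99ahg (-2.13 ± 0.11) fell. On chromosome 17, Mirlet7e (0.64 ± 0.06), Mir125a (0.63 ± 0.08) and Mir99b (0.27 ± 0.07) rose. Within these 2 clusters, each seed was thus shared by 1 gene that fell and 1 that rose. Other genes with these seeds are not given here. Mir203, which represses p63 in suprabasal cells, measured 6.17, 6.27 and 6.72 in the Hras-infected arrays, against 8.60, 8.55 and 8.49 in the mock-infected arrays, and fell by 2.16 ± 0.14 (adjusted p = 2.26e-11). Mir205, abundant in basal epidermis, fell by 0.78 ± 0.06, and Mir31, induced in wounded and psoriatic skin, rose by 1.08 ± 0.08. Mir200b (0.58 ± 0.08) and Mir200a (0.41 ± 0.08), which target Zeb factors, rose.

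**Figure D3:**
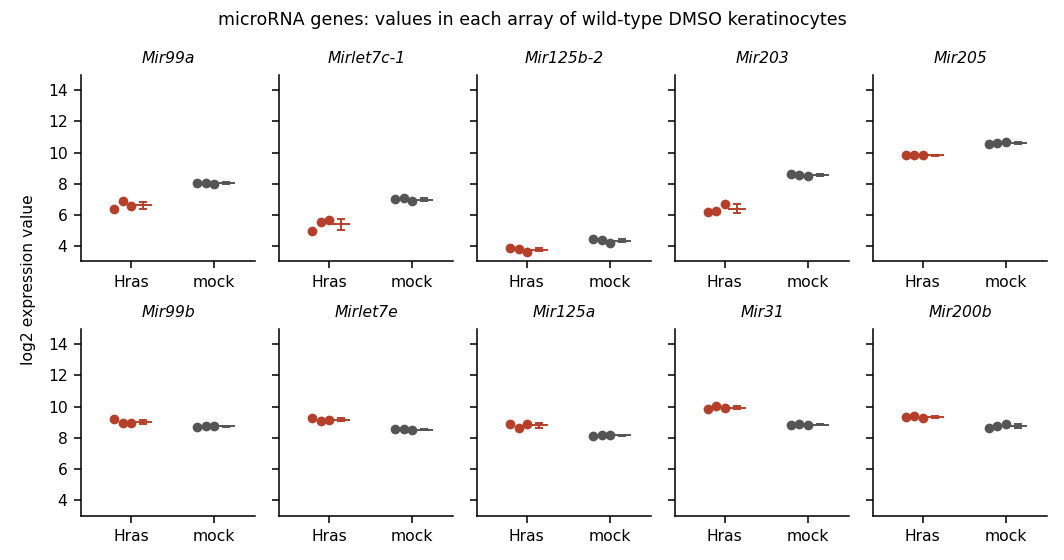
Log2 expression values (vertical axes) of 10 microRNA genes in each of the 3 Hras-infected (red) and 3 mock-infected (grey) wild-type DMSO arrays, with the mean and SD. Mir99a, Mirlet7c-1, Mir125b-2, Mir203 and Mir205 lie lower with Hras, and Mir99b, Mirlet7e, Mir125a, Mir31 and Mir200b lie higher, with no overlap.

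The same contrast in cells lacking PPAR-beta, Hras against mock in DMSO with 3 arrays each and no array in common, showed how much of the effect differed between genotypes. The difference of the Hras effect, null minus wild-type, passed for 3342 genes, 16.8% of those tested, 1665 positive and 1677 negative. Of the 3671 genes higher with Hras in wild-type cells, 2541 were also higher in null cells, which is 69.2% of the wild-type list and 63.1% of the null list, and 126 were lower. Of the 3783 lower, 2746 were also lower in null cells, 72.6% of the wild-type and 67.1% of the null list, and 115 were higher. Across genes the changes had a Pearson correlation of 0.809, a description since genes are not independent replicates. Of the 1001 genes changed by at least 2-fold in wild-type cells 968 moved the same way in null cells, and the median ratio of the null to the wild-type change was 0.83. These genes were chosen by their wild-type change, which by itself tends to put the ratio under 1, so it does not show a weaker response.

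Genes at the head of the wild-type effect also moved in null cells, some by less. Krt10 changed by -4.85 ± 0.09 in null cells, against -4.85 ± 0.09 in wild-type cells, a difference of 0.00 ± 0.13. Krt1 changed by -5.13 ± 0.13 in null cells, a difference of 0.67 ± 0.18 (adjusted p = 0.0141), and Krt18 by 4.33 ± 0.14, a difference of -0.84 ± 0.20 (adjusted p = 0.00454). Dusp4 differed by -0.11 ± 0.12 (adjusted p = 0.648) and Il1a by 0.12 ± 0.13 (adjusted p = 0.65). A missed threshold does not show that the genotypes respond alike. Mmp9 rose by 0.69 ± 0.17 in null and 2.49 ± 0.17 in wild-type cells, a difference of -1.80 ± 0.24 (adjusted p = 1.97e-05), and Lcn2 by 0.55 ± 0.13 in null and 2.34 ± 0.13 in wild-type cells, a difference of -1.79 ± 0.19 (adjusted p = 9.78e-07).

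The 12 genes named for the largest differences between genotypes followed several patterns. Gabrp, a GABA receptor subunit found in epithelia, changed by -2.20 ± 0.15 in null cells, against 1.16 ± 0.15 in wild-type cells, a difference of -3.36 ± 0.21 (adjusted p = 1.52e-09). Sorbs2, a cytoskeletal adaptor, likewise changed by -2.13 ± 0.12 in null and 1.08 ± 0.12 in wild-type cells. Both fell in null and rose in wild-type cells. Il3 changed by 0.61 ± 0.23 in null cells, against 3.67 ± 0.23 in wild-type cells, and Sox11, a neural and embryonic transcription factor, by -0.21 ± 0.14 in null cells, against 2.10 ± 0.14 in wild-type cells. In the other direction Defb4, a defensin, changed by 2.30 ± 0.23 in null and -0.57 ± 0.23 in wild-type cells, and Kctd4 by 2.19 ± 0.19 in null and -0.54 ± 0.19 in wild-type cells. The wild-type value of Kctd4 did not pass in 5 of the alternative settings, and that of Lce3f not without Hras replicate 3. Lce1b, Lce1f, Lce3e and Lce3f had differences between 2.32 ± 0.29 and 2.49 ± 0.35, Aspn one of 2.67 ± 0.28, with a change of -1.45 ± 0.20 in null cells, and the chloride channel regulator Clca3a2 one of -2.47 ± 0.20.

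**Figure D4:**
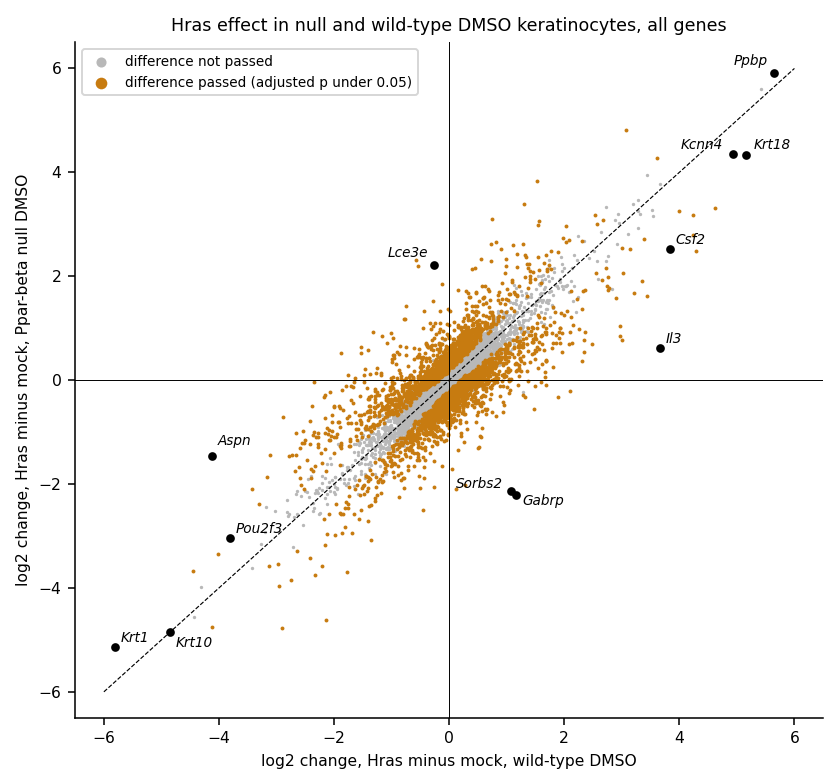
Log2 change with Hras in PPAR-beta null DMSO cells (vertical axis) against wild-type DMSO cells (horizontal axis) for all 19937 genes, with orange for genes whose difference passed, black for 12 named genes and a dashed line of equal change. Of the 1001 genes with a change of at least 2-fold in wild-type cells, 968 lie on the same side of 0 in both. Gabrp and Sorbs2 lie in the lower right, higher in wild-type and lower in null cells.

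The Hras effect differed between genotypes for 16.8% of all genes, against which the following lists are set. In the unfolded protein and integrated stress response list 25 of 27 genes differed, and the median change was 1.02 in null cells and 0.30 in wild-type cells. Trib3 changed by 1.80 ± 0.08 in null and 0.57 ± 0.08 in wild-type cells and Slc1a5, a glutamine carrier, by 1.42 ± 0.09 in null and -0.76 ± 0.09 in wild-type cells. In the cornified envelope list 18 of 27 differed, with medians of -0.03 in null and -0.89 in wild-type cells, and in the lipid barrier list 15 of 21, with 0.14 in null and -0.41 in wild-type cells. Fibroblast markers differed in 12 of 15 cases, with -0.62 in null and -1.31 in wild-type cells. The TGF-beta list had 18 of 25 that differed, the Wnt and stem cell list 14 of 21 and the list of epithelial-mesenchymal transition 11 of 16. The matrix protease list had 13 of 19, the keratinocyte protease list 10 of 13 and the ERK feedback list 13 of 22. In the DNA replication list 13 of 27 differed, with medians of 0.38 in null and 0.08 in wild-type cells. The cell cycle list, with 4 of 31, and the respiratory chain list, with 5 of 27, were near the share of all genes. Of 16 genes of the p53 response 1 differed.

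In wild-type cells given GW0742 the effect of Hras differed from that in DMSO for a small share of genes. The difference, GW0742 minus DMSO, passed for 492 genes, 2.47% of those tested, 408 positive and 84 negative. The 2 contrasts share no array. The count was 286 without wild-type Hras GW0742 replicate 3, 311 without wild-type mock GW0742 replicate 1 and 323 without wild-type mock DMSO replicate 2. Of the genes higher with Hras in DMSO 2822 were higher with GW0742, 76.9% of the DMSO and 79.8% of the GW0742 list, and 6 were lower. Of those lower in DMSO 2879 were lower with GW0742, 76.1% of the DMSO and 82.6% of the GW0742 list, and 29 were higher. Of the 1001 genes changed by at least 2-fold in DMSO, 998 kept their sign, with a median ratio of 0.90. This ratio too is taken over genes chosen by their change in DMSO, so it does not show a weaker response.

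Angptl4 had the largest negative difference: Hras changed it by 0.42 ± 0.11 with GW0742 and 2.25 ± 0.11 in DMSO, a difference of -1.83 ± 0.15 (adjusted p = 5.91e-07). Serpinb9e changed by 3.17 ± 0.19 with GW0742 and 0.35 ± 0.19 in DMSO. The lipoxygenase Alox12b changed by 0.42 ± 0.17 with GW0742 and -1.52 ± 0.17 in DMSO, a difference of 1.94 ± 0.25 (adjusted p = 7.58e-05). Sdr9c7, which acts on the same barrier lipids, changed by -0.28 ± 0.22 with GW0742 and -1.86 ± 0.22 in DMSO, and the phospholipase Pla2g4e by -0.40 ± 0.15 with GW0742 and -2.16 ± 0.15 in DMSO. Mmp13, a collagenase, changed by 2.43 ± 0.22 with GW0742 and 0.35 ± 0.22 in DMSO. Krt1 (-0.44 ± 0.18, adjusted p = 0.293), Krt18 (0.07 ± 0.20, adjusted p = 0.947) and Dusp4 (-0.03 ± 0.12, adjusted p = 0.963) had differences that did not pass.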

How the data were processed

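The deposited table of the authors holds log2 expression values of 24 Affymetrix Mouse Gene ST arrays. The submitters' processing notes name RMA, a method that subtracts background, quantile-normalizes and summarises probe sets, with no version. Values lay between 2.27 and 14.8, and 0 arrays were identical. Quantile normalization hides a shift shared by most genes, and the table has no detection call, so low values may be near background. Per the labels' protocols, TRIzol was used to extract total RNA, followed by an RNeasy cleanup.

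Of 34760 probe sets, 21640 have 1 gene symbol in GEO's platform annotation, 1321 several and 11799 none listed. Per gene the 1 probe set with the highest mean was kept (954 genes had several), which left 19937 genes, 19854 of them matched to RefSeq (GRCm38.p6). limma 3.58.1 (R 4.3.3) fitted a mean for each of the 8 groups by lmFit and eBayes, on 16 residual degrees of freedom and 4.43 from the prior, with two-sided p-values, Benjamini-Hochberg adjustment over all genes and a threshold of 0.05. The 42 lists hold 838 entries, 793 measured, 6 through an older name. The members and lists were chosen with earlier results of these data known, and some genes are in several lists. The genes named were the 20 largest rises and falls among passing genes whose arrays do not overlap, skipping predicted transcripts, all members of lists with up to 12 measured, the 8 largest changes and 2 highest non-passing members of other lists, and the 12 largest passing values of each difference. The text gives part of these. The genes of the promoter and microRNA paragraphs, and others so marked, were picked once their values were known. Hras itself, Cdkn1a and Areg were not analysed here.

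On simulated data for this comparison over 19937 genes, the procedure found 88 of the 100 genes set to a 1.5-fold change and 99 of the 100 set to 2-fold, and wrongly called 11 unchanged genes. Only those genes were changed and the noise was independent between genes, whereas 37.4% of genes passed in the data. The 11 is thus no estimate of the false calls among the 7454 genes reported. Replicate numbers did not pair the arrays of the Hras comparison: same-numbered wild-type Hras and mock arrays had correlations of deviations of -0.121 to 0.038. Between the null and wild-type mock DMSO groups all 3 were over 0.1 (0.118 to 0.144), but between the null and wild-type Hras DMSO groups they ran from -0.051 to 0.212. Alternatives were only the arrays compared, a fit leaving out null Hras GW0742 arrays, the number as a block, trend and robust moderation, the 40% dimmest genes left out, arrays centred, a minimum fold of 1.5, every probe set, and each array left out. Figures used matplotlib 3.10.9, pandas 2.3.3 and Python 3.11.15.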

Additional observations from a re-analysis of the deposited data

Results flagged for a closer look

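The effect of Hras differed between null and wild-type DMSO cells for 3342 genes and between GW0742 and DMSO in wild-type cells for 492, by the test of the difference itself. Groups of 3 arrays are too small for the search for single arrays that stand apart.

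Between genotypes, null minus wild-type, the largest negative differences were those of Gabrp (-3.36 ± 0.21), Sorbs2 (-3.21 ± 0.17), Il3 (-3.06 ± 0.33), Clca3a2 (-2.47 ± 0.20) and Sox11 (-2.32 ± 0.20). The largest positive ones were those of Defb4 (2.87 ± 0.33), Kctd4 (2.73 ± 0.27), Aspn (2.67 ± 0.28), Lce3e (2.49 ± 0.35), Lce1b (2.42 ± 0.23), Lce3f (2.36 ± 0.29) and Lce1f (2.32 ± 0.29).

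Between GW0742 and DMSO, GW0742 minus DMSO, the positive differences were those of Serpinb9e (2.82 ± 0.26), Mmp13 (2.09 ± 0.31), Alox12b (1.94 ± 0.25), Dnase1l3 (1.84 ± 0.21), Ppef1 (1.82 ± 0.18), Skint9 (1.81 ± 0.25), Pla2g4e (1.76 ± 0.22), Sprr2j-ps (1.74 ± 0.24), Pdk4 (1.69 ± 0.12), Dhrs9 (1.63 ± 0.27) and Sdr9c7 (1.58 ± 0.31), and the negative one was that of Angptl4 (-1.83 ± 0.15).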

How the results depend on the processing

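The count of genes changed by Hras, 7454 as reported, ran from 7423 to 7951 over the settings that kept the threshold, all genes and all 3 arrays a group. It was 6982 among the genes kept when the 40% dimmest were left out. With every probe set counted, 8040 of 21640 probe sets passed. The gene-by-gene direction of the 314 genes printed was reversed in 0 of 3737 repeats (3709 kept their call, 15 lost it and 13 gained it). The 4 genes that lost it in some setting were Kctd4, Krt25, Krt5 and Lce3f. A minimum fold of 1.5 left 2198 genes (985 higher, 1213 lower), 983 genes with a genotype difference (475 positive, 508 negative) and 212 with a ligand difference (195 positive, 17 negative), since it asks for a larger change. The negative ligand differences, 84 as reported, were 131 without the null Hras GW0742 group, 133 with trend and robust moderation and 127 without the dimmest genes; the cause was not tested. Centring moved the balance of the Hras effect to 4625 higher and 3142 lower. With the replicate number as a block the counts were 7423, 3371 and 567. The check of the pairing passed for the null and wild-type mock DMSO groups, and not for the Hras groups or for Hras against mock in wild-type cells, and the block changed no count by over 1.5 times.

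Leaving out 1 array gave 6642 to 6882 genes for the Hras effect (3217 to 3454 higher, 3425 to 3490 lower) and 2669 to 3549 for the genotype difference (1296 to 1732 positive, 1349 to 1817 negative). The ligand difference ran from 286 to 482 (244 to 408 positive, 37 to 116 negative). It was 286 without wild-type Hras GW0742 replicate 3, 311 without wild-type mock GW0742 replicate 1 and 323 without wild-type mock DMSO replicate 2, so its count depends on these arrays. Its negative part was 42, 46 and 37 without those, and 54, 52 and 49 without wild-type mock DMSO replicate 3 and wild-type mock GW0742 replicates 2 and 3. A minimum fold and every probe set were applied to the counts and not to single genes or lists.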

Other observations

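Gene families beyond the lists were looked at after their values were seen, and their counts are descriptions. Of 20 measured genes of the prolactin family, hormones mostly of the placenta, 9 rose and 0 fell with Hras, where 18.4% of all genes rose. Prl2c5, a proliferin, measured 11.01, 11.11 and 11.26 in the Hras-infected arrays, against 5.06, 6.08 and 5.99 in the mock-infected arrays. Prl8a9 measured 9.55, 9.72 and 10.31 in the Hras-infected arrays, against 6.33, 6.11 and 6.29 in the mock-infected arrays. Both were far higher with Hras, with changes of 5.41 ± 0.22 and 3.62 ± 0.15, and Prl7b1 rose by 3.07 ± 0.18. Proliferin genes are near-identical copies, so which of them carries the signal is uncertain.

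Of 8 contractile and pericyte genes picked after their values were seen, 7 fell, where 19% of all genes fell. They were Actg2 (-2.82 ± 0.09), Myl9 (-2.64 ± 0.10), Cspg4 (-2.47 ± 0.11), Tagln (-2.26 ± 0.12), Pdgfrb (-2.04 ± 0.07), Acta2 (-1.82 ± 0.06) and Cnn1 (-1.37 ± 0.11). Rgs5 had a change of -0.04 ± 0.08 and did not pass. Of 15 fibroblast markers 14 fell in wild-type cells too, and Pdgfrb is in both sets. The fibroblast median was -0.62 in null and -1.31 in wild-type cells. Acta2, Myl9 and Cnn1 fell further in null cells (differences of -0.64 ± 0.09, -0.66 ± 0.14 and -0.53 ± 0.16). Cspg4 (0.93 ± 0.16) and Pdgfrb (1.36 ± 0.10) fell less there, and the differences of Actg2 and Tagln did not pass. The part of other cells in these falls was not tested.

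The 5 stefin genes picked, which need not be all that the arrays measure, fell, where 19% of all genes fell. Stfa3 fell the most (-3.21 ± 0.11), then Cstdc6 (-2.82 ± 0.13) and Stfa2 (-2.51 ± 0.20). Of 10 genes of the insulin-like growth factor axis 3 rose, 5 fell and 2 did not pass: Igfbp2 (-2.21 ± 0.14), Igfbp5 (-2.12 ± 0.16), Igf1 (-0.98 ± 0.08), Igf2 (-0.77 ± 0.07) and Igf1r (-0.52 ± 0.05) fell, the clearance receptor Igf2r (1.23 ± 0.04), Igfbp3 (1.18 ± 0.08) and Igfbp7 (1.21 ± 0.09) rose, and Igfbp4 (0.01 ± 0.07) and Igfbp6 (-0.01 ± 0.10) did not pass. Among single genes, Arg1, an arginase, rose by 3.21 ± 0.11 in wild-type cells and changed by 1.68 ± 0.11 in null cells, a difference of -1.53 ± 0.16 (adjusted p = 9.97e-07). The double-stranded RNA sensor Tlr3 rose by 2.73 ± 0.13, while 12 of 22 interferon response genes fell. Hmga2, a chromatin protein, rose by 2.67 ± 0.07, and Txnip, which restrains glucose uptake, fell by 1.99 ± 0.14.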
